A study of Homo sapiens with 6 samples.

Results

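The sites described here are the 262 GAPDH peaks that were found in low glucose alone, of 484 peaks in the low glucose list and 1316 peaks in all 3 lists of the series. A peak is a distinct stretch of the genome (build hg38), and the members were chosen by position: a low glucose peak was kept when it overlapped by 1 nt or more no peak of the normal glucose list and no peak of the galactose list. This held for 54.1% of the low glucose peaks. By the same rule 65.5% of normal glucose peaks (324 of 495) and 32.9% of galactose peaks (111 of 337) stood alone. The other 222 low glucose peaks, called shared low glucose peaks below, were met by at least 1 of the other lists.

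MOLM-13 is an established human acute myeloid leukaemia cell line. Unmodified cells were grown in low glucose, normal glucose or galactose medium, RNA was crosslinked to protein, GAPDH was recovered with a polyclonal antibody, and the attached RNA was sequenced (CLIP), with 2 samples in each medium. The question behind the design was whether the RNA contacts of GAPDH depend on the sugar that feeds glycolysis. The 2 samples of each medium had been joined into 1 list of positions and gene names before deposit, so read depth, peak height and replicate error are unknown, and every test compares lists of peaks and not conditions. Peaks are not replicates, and a peak of 1 list says that a site was called there, not that GAPDH was absent from it in the other media. The amount of a transcript and the share of it that is bound cannot be told apart in such lists.

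GAPDH (glyceraldehyde-3-phosphate dehydrogenase) is the enzyme of glycolysis that oxidises glyceraldehyde 3-phosphate with NAD+ as the acceptor. It also binds RNA without having a classical RNA-binding domain, and its nucleotide-binding fold has been implicated in that contact. Earlier studies in several cell lines, AML cells among them, reported that it binds AU-rich elements, short AU motifs in the 3'UTR of labile mRNAs. The study itself measured binding of recombinant GAPDH to the AU-rich element of TNF in vitro. In CLIP, ultraviolet light joins protein to RNA at points of close contact, and a single called crosslink site here appears as a peak of 101 nt with the site in its middle.

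Sites in coding exons made up the largest part of the 262 peaks, and the following were chosen because later results turn on them. Each is written 5′ to 3′ on the strand of its gene from hg38. Capitals mark what remains of a peak after 50 nt are taken from either end, which is the called crosslink site or the stretch of merged sites, together with the base just before it. The elongation factor EEF2 carried 5 such peaks, of which 1 was a single-site peak (exon 12, CDS, minus strand, chr19:3977925-3978025). It is shown with the nearest EEF2 peak of normal glucose (exon 12, minus strand, chr19:3978109-3978209), which lies 83 nt away. GDF15, a secreted stress-induced cytokine of the TGF-beta superfamily, carried 2 peaks in exon 2 (CDS, plus strand, chr19:18388577-18388677 and chr19:18388701-18388801).
EEF2, low glucose only: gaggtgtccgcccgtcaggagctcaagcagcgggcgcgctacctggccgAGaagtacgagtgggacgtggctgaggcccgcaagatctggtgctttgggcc
EEF2, normal glucose only: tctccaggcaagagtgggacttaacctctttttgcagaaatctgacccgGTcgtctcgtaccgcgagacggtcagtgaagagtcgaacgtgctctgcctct
GDF15, low glucose only, upstream site: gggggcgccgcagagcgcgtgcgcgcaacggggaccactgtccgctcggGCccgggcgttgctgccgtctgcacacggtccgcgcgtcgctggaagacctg
GDF15, low glucose only, downstream site: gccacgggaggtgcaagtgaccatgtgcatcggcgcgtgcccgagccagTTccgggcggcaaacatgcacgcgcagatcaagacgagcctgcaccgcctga
The base before the middle was G at the normal glucose site of EEF2 and A at its low glucose site, and it was G and T at the upstream and downstream sites of GDF15.

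Vimentin (VIM), the intermediate filament protein of mesenchymal and blood cells, carried 3 low-glucose-only peaks in exon 2 and no peak of another list. The 2 peaks in the CDS (plus strand, chr10:17229462-17229567 and chr10:17229593-17229710) hold several merged sites each. Of GAPDH itself, 1 peak in exon 6 (CDS, plus strand, chr12:6537054-6537155) stood alone in low glucose.
VIM, low glucose only, upstream peak: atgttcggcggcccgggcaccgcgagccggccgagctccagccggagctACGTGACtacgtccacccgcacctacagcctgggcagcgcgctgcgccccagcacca
VIM, low glucose only, downstream peak: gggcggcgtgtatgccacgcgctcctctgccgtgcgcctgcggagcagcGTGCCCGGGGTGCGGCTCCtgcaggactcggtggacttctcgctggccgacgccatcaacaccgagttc
GAPDH, low glucose only: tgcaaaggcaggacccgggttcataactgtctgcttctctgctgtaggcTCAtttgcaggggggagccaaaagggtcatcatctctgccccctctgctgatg
The VIM peaks are 73.6% and 71.2% G or C, and the GAPDH peak, which reaches from intron sequence into exon 6, is 55.9% G or C. A non-coding gene, VIM-AS1, lies on the opposite strand of VIM, and the lists do not say from which of the 2 strands the reads came.

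Metallothioneins are small cysteine-rich proteins that bind zinc and copper, and their genes lie as close copies of each other on chromosome 16. Exon 2 sites of MT1E (chr16:56626452-56626552) and MT1X (chr16:56683152-56683252) were found in low glucose alone. They are set beside the exon 2 site of MT1H (chr16:56670493-56670593), which was found in normal glucose alone. All lie in the CDS on the plus strand.
MT1E, low glucose only: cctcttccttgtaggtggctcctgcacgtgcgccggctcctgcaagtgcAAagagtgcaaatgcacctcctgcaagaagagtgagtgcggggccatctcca
MT1X, low glucose only: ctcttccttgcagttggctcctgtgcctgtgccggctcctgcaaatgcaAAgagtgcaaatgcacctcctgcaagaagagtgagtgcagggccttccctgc
MT1H, normal glucose only: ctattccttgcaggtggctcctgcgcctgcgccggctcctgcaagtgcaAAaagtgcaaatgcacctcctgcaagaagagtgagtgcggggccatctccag
The middles lie 136 nt, 137 nt and 137 nt from the 5' end of the MT1E, MT1X and MT1H RNAs. With a shift of 1 nt, the MT1E site was identical to the MT1H site at 95 of 100 aligned bases and to the MT1X site at 88 of 100. For MT1E, 83.3% of the 30-base words of the peak occur at more than 1 place in the genome, against 38.9% for MT1X. Assignment of a read to 1 of these genes therefore rests on few bases, and the treatment of reads with several matches is not given in the sources used here. The metallothioneins had 5 low glucose peaks, and all 5 stood alone, against 54.1% of the whole low glucose list and 72.0% of its coding peaks. The interval for so few peaks (47.8 to 100%) reaches below both. They lie in MT2A (2), MT1E, MT1H and MT1X. Of the 324 normal-glucose-only peaks 3 lay in this group, and of the 111 galactose-only peaks none. A position shared by normal glucose and galactose, 138 nt from the 5' end of MT2A, was not in the low glucose list, which held MT2A at 61 nt (5'UTR) and 256 nt (3'UTR).

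Sites in the 5'UTR were the next large group of exonic sites. The examples below were taken from ribosomal protein and translation factor mRNAs, from MT2A and from the first gene in genome order, the splicing factor SRSF4. Each shows 29 nt around the site, with the middle base and the base before it in capitals (RPS13 chr11:17077650-17077678, minus strand; RACK1 chr5:181243812-181243840, minus; EIF1 chr17:41688974-41689002, plus; MT2A chr16:56608630-56608658, plus; SRSF4 chr1:29181785-29181813, minus).
RPS13: actctcgctctccTTtcgttgcctgatcg
RACK1: catcctcgtcgctGCagcgacacacgctc
EIF1: tctcccgccaccgCCgccgccgccttccg
MT2A: gactctagccgccTCttcagctcgccatg
SRSF4: tttgcccgccgccGCctaaggggggctgg
RPS13 encodes a protein of the small ribosomal subunit, and its site lay 4 nt from the 5' end of the RNA in pyrimidine-rich sequence, so that most letters before the capitals lie upstream of the annotated start. RACK1 is a scaffold protein bound to the small subunit, and its site lay 81 nt from the 5' end. EIF1, which takes part in start codon recognition, had its site at 104 nt, and that of SRSF4 also lay in exon 1.

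Some members lie close to the limit of the rule. The 5 low-glucose-only peaks nearest to a peak of another list were in RPS19 (a gap of 0 nt, the peaks touching), NEAT1 (5 nt), PABPC1 (7 nt), RNU12 (15 nt) and IGFBP7 (17 nt). Just outside, low glucose peaks with small overlaps were in TKT (11 nt shared), SCARNA2 (20 nt), RPLP2 (23 nt) and KDELR1 (25 nt). Within 50 nt of a peak of another list lay 12 of the 262 peaks (4.58%), and within 500 nt lay 40 (15.3%). Most members were thus far from any other site, with 188 of them more than 10000 nt away on the genome.

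The low-glucose-only peaks fell mainly on mRNA genes. Of the 262, 203 (77.5%, exact 95% interval 71.9 to 82.4) lay in protein coding genes away from genes of small RNAs, against 79 of 222 shared low glucose peaks (35.6%, 29.3 to 42.3), 175 of 324 normal-glucose-only peaks (54.0%, 48.4 to 59.5) and 81 of 111 galactose-only peaks (73.0%, 63.7 to 81.0). The share was higher than in the shared peaks by 41.9 percentage points (two-sided Fisher's exact test, Benjamini-Hochberg adjusted p = 1.91e-19 over 33 tests) and higher than in the normal-glucose-only peaks by 23.5 points (adjusted p = 1.93e-08). Against galactose-only peaks the difference was 4.51 points and did not pass (adjusted exact p = 0.51). Intervals cover counting error over peaks only.

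**Figure D1:**
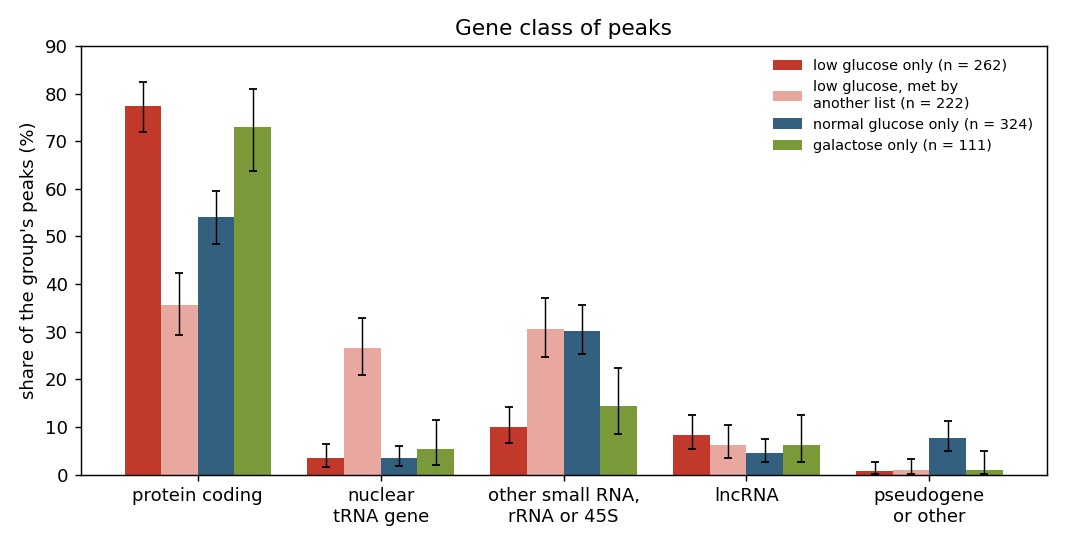
Share of peaks in each gene class (y axis, percent of the group's peaks) for low-glucose-only, shared low glucose, normal-glucose-only and galactose-only peaks, with exact 95% intervals. Protein coding genes hold 77.5% of the low-glucose-only peaks, and nuclear tRNA genes hold 3.44% of them against 26.6% of the shared low glucose peaks.

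Genes of tRNAs, which bring amino acids to the ribosome, were the reverse. Nuclear tRNA genes were overlapped by 9 of the 262 low-glucose-only peaks (3.44%) and by 59 of the 222 shared peaks (26.6%, adjusted exact p = 7.52e-13). In normal-glucose-only peaks the share was 3.40% (11 of 324, adjusted exact p = 1) and in galactose-only peaks 5.41% (6 of 111, adjusted p = 0.541). The 9 tRNA sites lay within introns or non-coding genes, among them NDUFS7, SLC47A1, ZBED9 and RNASE11. Their hosts are named by the annotation, and tRNA genes have their own transcripts.

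Other small RNA genes, rRNA genes and 45S units held 26 low-glucose-only peaks (9.92%, 6.59 to 14.2), against 68 shared low glucose peaks (30.6%, adjusted exact p = 5.2e-08), 98 normal-glucose-only peaks (30.2%, adjusted p = 8.97e-09) and 16 galactose-only peaks (14.4%, adjusted p = 0.353). By role, snoRNAs and scaRNAs, which guide the modification of rRNA and spliceosomal RNA, held 12 of them in 12 genes, and 12 of 32 low glucose peaks on this group stood alone (37.5%, 21.1 to 56.3). Among these were the H/ACA RNAs SNORA73B, SNORA3A, SNORA55 and SNORA17A, the Cajal body RNAs SCARNA12 and SCARNA22 and the box C/D RNAs SNORD17 and SNORD67. Of the 12 genes, 10 had no peak in another list, against 229 of 299 (76.6%) over all genes of low-glucose-only peaks. Spliceosomal RNA genes and their copies held 6 of 21 (28.6%), which included the minor spliceosome RNAs RNU12 and RNU6ATAC, the U1 variant RNVU1-1 and the U1 copies RNU1-11P and RNU1-63P. For rRNA genes and pseudogenes, mostly of the 5S type, it was 5 of 18 (27.8%), and for 7SL, 7SK, Y, vault, RNase P and MRP RNAs 2 of 12 (16.7%, the copies RN7SKP148 and RN7SL151P). All of these shares lie under the 54.1% of the whole low glucose list, and the class as a whole had 26 of 94 (27.7%), against 203 of 282 (72.0%, 66.4 to 77.1) for protein coding genes.

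Long non-coding RNAs held 22 low-glucose-only peaks of 36 (61.1%, 43.5 to 76.9), and the interval holds the 54.1% of the whole low glucose list. NEAT1, the scaffold of paraspeckles, had 2 in its single exon, 367 nt and 674 nt from the 5' end, and MALAT1, a nuclear speckle RNA, had 1 at 1464 nt. The snoRNA host gene SNHG29 had 2 peaks, and no peak of another list lay on it. SNHG3, SNHG6, SNHG7 and SNHG17 had 1 each, of which those of SNHG3, SNHG7 and SNHG17 lay on a snoRNA gene.

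Among mRNAs, components of the translation machinery were the most frequent of the gene lists used. Genes of large ribosomal subunit proteins held 23 low-glucose-only peaks in 17 genes, 65.7% of the 35 low glucose peaks in this group (47.8 to 80.9). Genes of small subunit proteins held 19 in 14 genes, 55.9% of 34 (37.9 to 72.8). Both lie near or below the 72.0% found for protein coding genes as a whole, so the low-glucose-only share of these groups does not stand out. Among the 324 normal-glucose-only peaks there were 24 and 15 on the large and small subunit groups, and among the 111 galactose-only peaks 4 and 7. RPL8 had 3 peaks, and RPL10, RPL13A, RPL27A, RPLP2, RPS12, RPS16, RPS19 and RACK1 had 2 each. Of the 17 large subunit genes, 8 had no peak in another list at any place, against 2 of the 14 small subunit genes. Both counts lie below the share over all genes of low-glucose-only peaks (229 of 299, 76.6%). Most of these peaks lay in the CDS (17 large, 15 small), with 5 and 4 in the 5'UTR.

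Translation factors and poly(A)-binding proteins held 10 of the low-glucose-only peaks, 76.9% of 13 low glucose peaks (46.2 to 94.96), which lies near the 72.0% of all coding peaks. EEF2, which moves the ribosome along the mRNA by 1 codon in each cycle, held 5. Their middles lay in exons 2, 4, 12, 13 and 14, at 297, 529, 1994, 2234 and 2449 nt from the 5' end of an RNA of 3158 nt. All low glucose peaks of EEF2 were among the 5. Normal glucose had 4 EEF2 peaks, in exons 11, 12 and 15 and in intron 10, and galactose none. PABPC1, the main cytoplasmic poly(A)-binding protein, had 2 (341 nt, 5'UTR, and 557 nt, CDS), while the remaining low glucose peak of the gene, at 70 nt, was met by normal glucose. Of the PABPC1 peaks, that in the CDS is recurrent in the genome (62.5% of its 30-base words). EIF3J and PABPC4 held 1 peak each, that of PABPC4 on SNORA55.

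**Figure D2:**
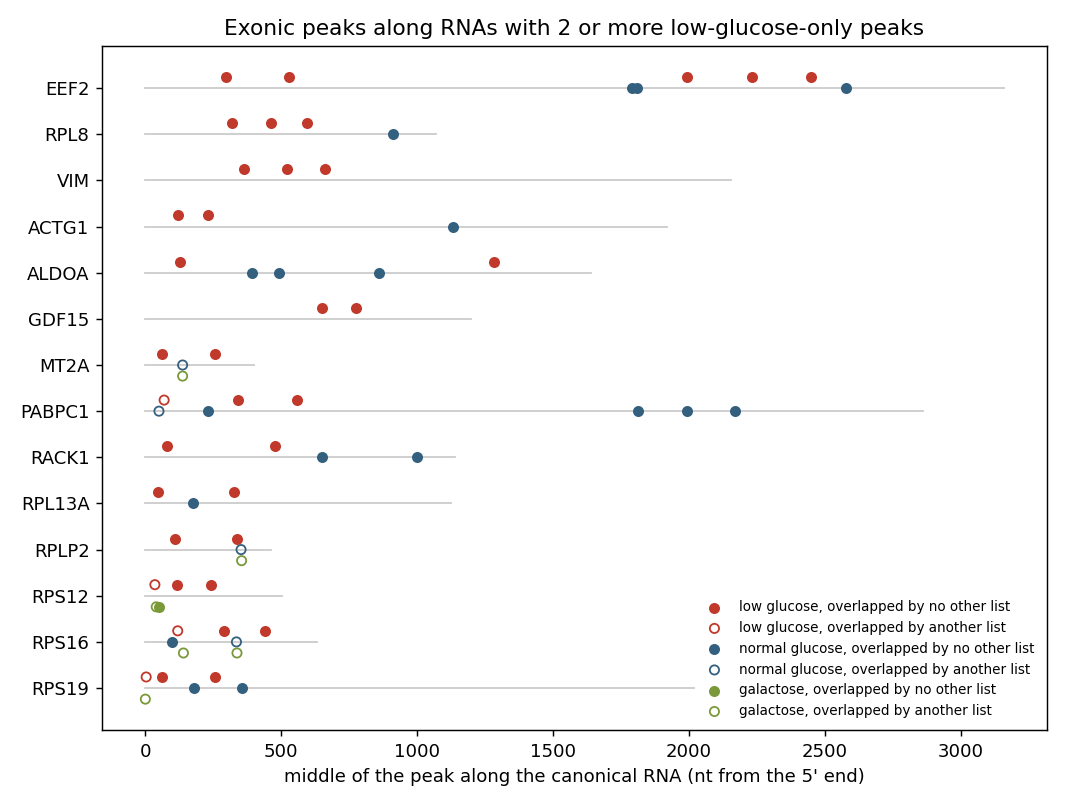
Middles of exonic peaks (x axis, nt from the 5' end of the canonical RNA) in mRNAs with at least 2 exonic low-glucose-only peaks; each row is an RNA, its grey line gives the RNA's length, and filled points are peaks that no other list overlaps. The 5 EEF2 peaks of low glucose lie on both sides of the normal glucose peaks at 1791 and 1810 nt, and VIM and GDF15 have no point of another list.

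In RPS19 and RPL13A, sites of different media alternated along the RNA. The RPS19 sites of low glucose alone lay at 62 and 256 nt, those of normal glucose alone at 181 and 357 nt. The RPS19 peaks at 256 and 357 nt touch, and a further low glucose peak, at 4 nt, was met by galactose at 1 nt. RPL13A had low-glucose-only peaks at 46 nt (exon 2) and 326 nt (exon 5), and a normal-glucose-only peak at 176 nt. A further 3 low glucose peaks of RPL13A were annotated to its snoRNA genes SNORD32A and SNORD33 as well, and all 3 were shared. RPS16 had low-glucose-only sites at 291 and 441 nt, on both sides of a position shared by normal glucose and galactose at 336 and 338 nt. RACK1 had them at 81 and 477 nt, and normal glucose alone at 652 and 1001 nt. RPL8 had its 3 at 321, 462 and 597 nt, and normal glucose 1 at 913 nt. These are single called positions, and the number of reads behind each is unknown.

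Genes of the cytoskeleton held 12 of 324 normal-glucose-only and 0 of 111 galactose-only peaks. In low glucose alone they held 12 peaks in 9 genes, 92.3% of 13 low glucose peaks (64.0 to 99.8). Beside VIM, these were ACTG1 (2), the cytoplasmic gamma actin, at 120 and 233 nt, and ACTB, the beta actin, at 174 nt, 83 nt on the genome from a peak of another list. The actin-binding proteins FLNA, PFN1, TAGLN2 and TMSB4X, the non-muscle myosin heavy chain MYH9 and the tubulin TUBA1B had 1 each. The peak of PFN1 is also annotated to ENO3 and that of TUBA1B to ENSG00000258017, each on the opposite strand. Of the 9 genes, 2 had no peak in another list, below the 76.6% (229 of 299) over all genes of low-glucose-only peaks. The low-glucose-only share lies above that of all coding peaks (72.0%), and its interval reaches below it.

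The listed enzymes of glycolysis and the pentose phosphate pathway held 3 low-glucose-only peaks, 2 in ALDOA (fructose-bisphosphate aldolase, 128 nt in the 5'UTR and 1283 nt in the CDS) and that of GAPDH. They were 3 of 4 low glucose peaks in this group (75%, 19.4 to 99.4), near the 72.0% of all coding peaks. The list did not include the enolase ENO3, which shares the peak given above for PFN1 and had no peak in another list. Of the 324 normal-glucose-only peaks 12 lay in this group, and of the 111 galactose-only peaks none. Between the ALDOA sites of low glucose lay 3 of normal glucose alone, at 394, 492 and 862 nt. A readthrough gene, ENSG00000285043, shares these positions with ALDOA. The nearest normal glucose peak of GAPDH, in exon 9, lay 966 nt from that of low glucose, and galactose had none in the gene.

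Histone genes had 4 low-glucose-only peaks, all in the CDS, in the linker histones H1-4 and H1-5 and the core histones H2AC11 and H3C11, of 8 low glucose peaks in all. The interval of this share (50%, 15.7 to 84.3) holds the 72.0% of all coding peaks. Normal glucose alone had 16 of its 324 peaks on histone genes, and galactose alone 2 of 111. The H1-4 and H2AC11 sites lay 34 and 40 nt from a normal glucose peak. Among splicing and hnRNP genes, HNRNPAB, PTBP3 and SRSF4 had 1 each, of 4 low glucose peaks (75%, 19.4 to 99.4), near the 72.0% of all coding peaks. The proteasome subunit gene PSMD8 had 1. Of the myeloid and leukaemia genes, CEBPA, a transcription factor of granulocyte development, had 1 in its CDS, with a second gene on the other strand. No low glucose peak of any kind lay on aminoacyl-tRNA synthetase, sugar uptake, serine and glycine, nutrient stress, mitochondrial genome or other cell type genes of the lists used.

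Of the study's targets and controls in the gene list used, GAPDH, RPL13A, MYC and MAVS had low glucose peaks. That list left out ACTB, the beta actin, which the study called a non-target in its translation assay. ACTB had 1 low glucose peak, which stood alone, 3 normal glucose peaks and 1 galactose peak. MYC, the growth-promoting transcription factor, had 1, which lay in the CDS of at least 1 annotated transcript and outside the canonical one, and the gene CASC11 on the other strand is annotated to the same peak. MAVS, the mitochondrial adaptor of antiviral signalling, had 1 in exon 6 (CDS) with G before its middle. The study used MAVS as a negative control in its RNA stability assay, for which its methods name no low glucose medium. It treated GAPDH, RPL13A and MYC as targets and reported binding in the 5'UTR of each. The low-glucose-only peaks of GAPDH and RPL13A lay in the CDS instead. Neither MYC nor MAVS had a peak in another list. These single sites carry no error, since the lists give no values for a site.

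Genes with more than 1 low-glucose-only peak were 24 of the 299 genes annotated to the 262 peaks (8.03%). Beyond those already named, CCSER1 and TMEM132B had 2 each, all in introns, and the unnamed genes ENSG00000280195 and ENSG00000285043 overlap RPL10 and ALDOA. One of the CCSER1 peaks is also annotated to TMSB4XP8, and its strand is not settled by its genes. That peak is recurrent in the genome (59.7% of its 30-base words), so its reads may belong elsewhere. Of the 299 genes, 229 (76.6%) had no peak in another list, 28 had a normal glucose peak, 15 a galactose peak and 27 both. Counted by peak, 78 of 262 (29.8%) lay in a gene with a peak of another list elsewhere. The same count was 100 of 324 (30.9%) for normal-glucose-only and 34 of 111 (30.6%) for galactose-only peaks. It was 43 of 89 in the CDS, 13 of 51 in the 5'UTR and 6 of 55 in introns.

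Within protein coding genes, the middle of the peak lay in the CDS for 89 of 203 low-glucose-only peaks (43.8%, 36.9 to 50.96), in introns for 55 (27.1%), in the 5'UTR for 51 (25.1%, 19.3 to 31.7) and in the 3'UTR for 8 (3.94%). The shared low glucose peaks were less often in the CDS (20 of 79, 25.3%, adjusted exact p = 0.0117) and more often in introns (34 of 79, 43.0%, adjusted p = 0.0351). Both calls were lost when a peak within 50 nt of another list also counted as shared (adjusted exact p = 0.168 and 0.151), and both differences changed sign when the limit was 500 nt. The intron call was lost under a further 5 alternatives.

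The 5'UTR share stood between those of the other media. It was 12.6 percentage points higher than in normal-glucose-only peaks (22 of 175, 12.6%, adjusted exact p = 0.00755) and differed by -15.6 points from galactose-only peaks (33 of 81, 40.7%, adjusted p = 0.0351). The first call was lost without recurrent peaks (adjusted exact p = 0.0607), without single-site peaks that have G before the middle (0.442) and with peaks of 1 gene only (0.147). The second was lost under 4 alternatives, with adjusted exact p between 0.0614 and 0.0913. The shares in the CDS (95 of 175, 54.3%, in normal glucose alone, adjusted exact p = 0.103) and in the 3'UTR (10 of 175, adjusted p = 0.601) did not pass in the main comparison.

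**Figure D3:**
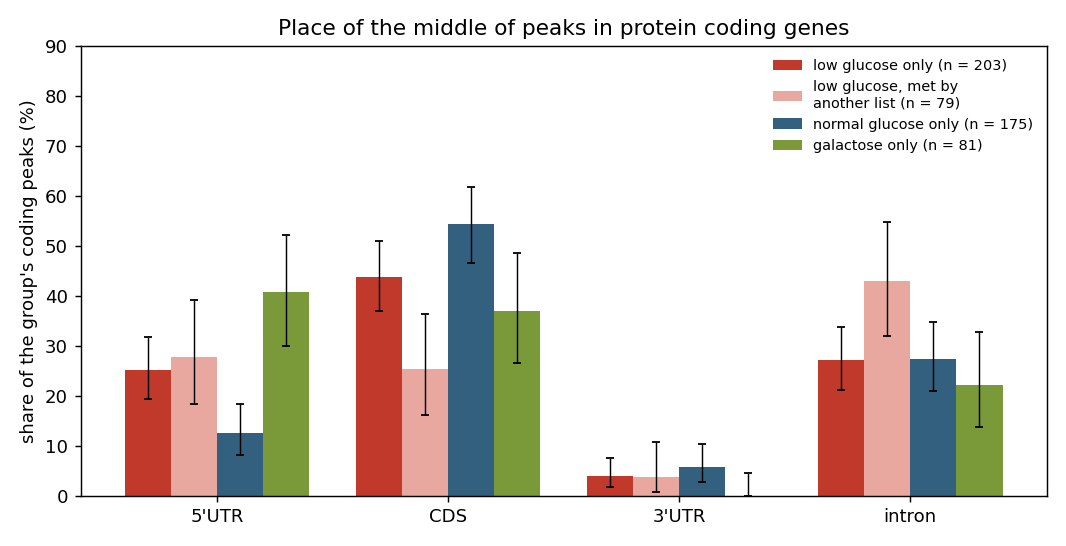
Place of the middle of peaks in protein coding genes (y axis, percent of the group's coding peaks, exact 95% intervals) for low-glucose-only, shared low glucose, normal-glucose-only and galactose-only peaks. The 5'UTR share of low-glucose-only peaks, 25.1%, lies between 12.6% in normal glucose alone and 40.7% in galactose alone.

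In genome order the first 5'UTR sites lay in SRSF4, KHDRBS1 (a signalling-linked RNA-binding protein), CDKN2C (an inhibitor of cyclin-dependent kinases), S100A11 (a calcium-binding protein), RAB3GAP2, ID2 (an inhibitor of helix-loop-helix transcription factors), PCBP1 (a poly(C)-binding protein), CNTN3, GMPS (an enzyme of GMP synthesis), CLDN1 (a tight junction protein), UBXN7 and RPL35A. The 8 sites in the 3'UTR were those of TTYH3, TSC22D4, GRINA, B4GALNT2, MT2A, OAZ1, PRRG3 and FLNA. In PRRG3, 90.4% of the 30-base words recur in the genome. LYN, a kinase of myeloid signalling, had the widest low-glucose-only peak, 262 nt in the 5'UTR, followed by EEF2 (246 nt) and RPL8 (219 nt).

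Distance from the 5' end gave a related picture, in a measure that was added after the data had been seen. Of the 136 exonic coding peaks of low glucose alone with a place on the canonical RNA, 38 (27.9%, 20.6 to 36.3) lay within 100 nt of the 5' end. The share was 23 of 43 in shared low glucose peaks (53.5%, adjusted exact p = 0.00902 over the 15 added tests), 13 of 123 normal-glucose-only peaks (10.6%, adjusted p = 0.00255) and 30 of 55 in galactose-only peaks (54.5%, adjusted p = 0.00291). The median distance was 174.5 nt in low glucose alone, against 91.0 nt, 345 nt and 94.0 nt in the same order. By this measure, low-glucose-only sites lay nearer to the 5' end than those of normal glucose alone and farther from it than those of the other groups. The measure was not recomputed under the alternatives set beforehand, and the medians were not tested.

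The sequence of the low-glucose-only peaks was rich in G and C. Their GC content ran from 1.98% (TLE1-DT) to 95.05% (IL17D, in the 5'UTR, with a second gene on the other strand) with a median of 63.2%, against medians of 54.6% in shared low glucose peaks, 54.5% in normal-glucose-only and 65.3% in galactose-only peaks. The median was 8.60 points above the shared and 8.78 points above the normal-glucose-only peaks (two-sided permutation tests with 100000 resamples, p = 1e-05, the smallest they can give, adjusted p = 3.67e-05 each). It differed by -2.11 points from the median of galactose-only peaks (adjusted permutation p = 0.333). Within the CDS alone, an added comparison, the median was 64.5% in low glucose alone and 58.4% in normal glucose alone (adjusted permutation p = 0.00045). For CDS peaks of low glucose alone against shared ones (62.4%) the adjusted permutation p was 0.502. In the 5'UTR the medians were 73.3%, against 67.4% in shared and 68.3% in normal-glucose-only peaks (adjusted permutation p = 0.0657 and 0.0721). Gene class and place differ between the groups along with GC content, and their part in the GC difference over all peaks was not tested beyond these splits.

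**Figure D4:**
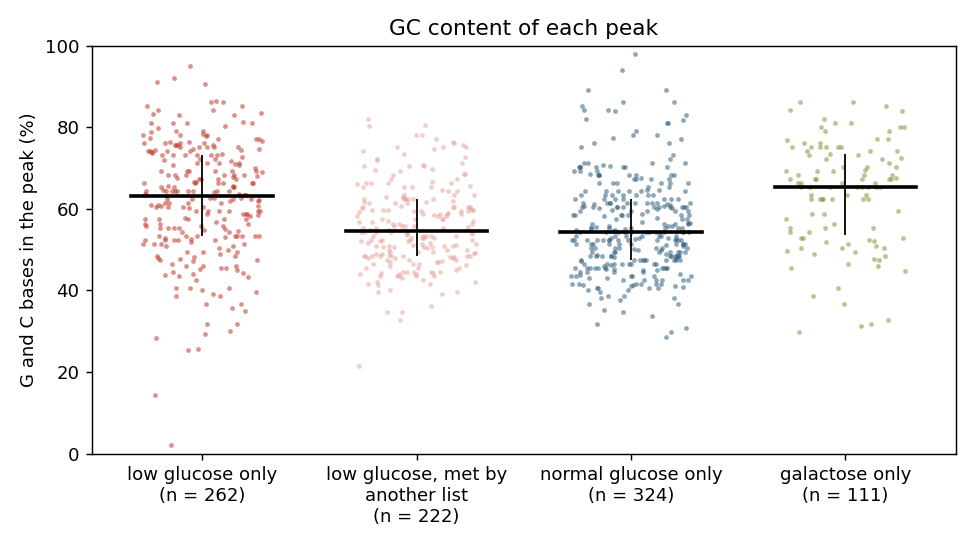
GC content of each peak (y axis, percent of bases; each point is a peak) in low-glucose-only, shared low glucose, normal-glucose-only and galactose-only peaks, with the median (thick line) and the quartiles (thin line). The medians are 63.2%, 54.6%, 54.5% and 65.3%.

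Over the middle 101 nt of the 230 low-glucose-only peaks whose genes share a strand, C made up 31.2% of bases, G 30.6%, U 19.7% and A 18.5%. In normal-glucose-only peaks the composition was 27.3% C, 29.5% G, 21.3% U and 21.9% A. C and G both contributed to the higher GC content.

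The base before the crosslink site separated low-glucose-only from normal-glucose-only sites. RNase T1, which the study used to trim the bound RNA, cuts after G. Among single-site peaks with a known strand, G stood before the middle in 33 of 120 low-glucose-only peaks (27.5%, 19.7 to 36.4), as in the upstream GDF15 site above, against 20 of 83 shared low glucose peaks (24.1%, adjusted exact p = 0.741), 137 of 190 normal-glucose-only peaks (72.1%, 65.2 to 78.4, adjusted p = 1.68e-13) and 17 of 75 galactose-only peaks (22.7%, adjusted p = 0.615). The difference from normal glucose alone was -44.6 points. It was 26.6% of 64 peaks on the plus strand and 28.6% of 56 on the minus strand. In exons of coding genes alone it was 16 of 66 (24.2%), against 77 of 98 (78.6%) in normal glucose alone (added comparison, adjusted exact p = 6.26e-11). At the middle itself, 15.8% of the low-glucose-only sites were G, and C was the most frequent base (36.7%). Digestion, library preparation and medium cannot be told apart as sources of this difference, since each list is a single joined set.

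**Figure D5:**
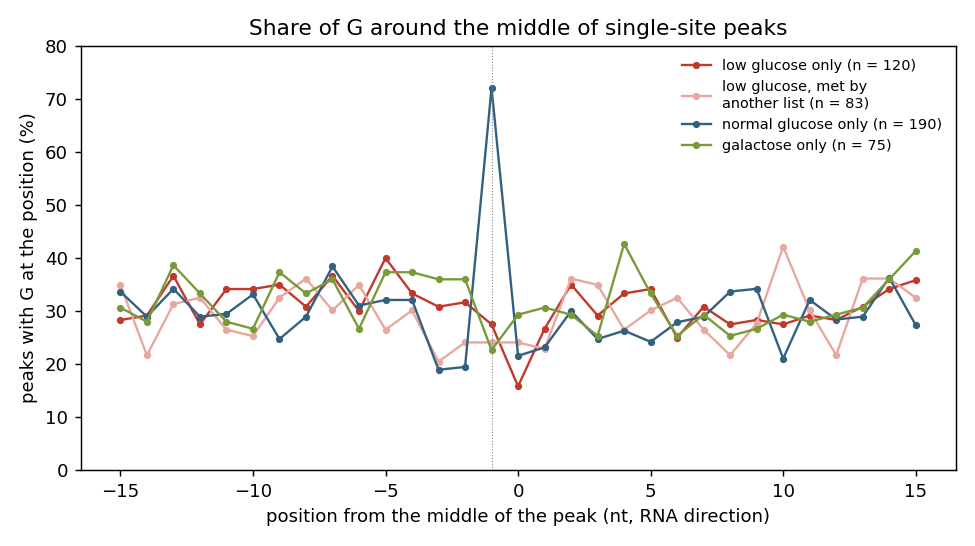
Share of single-site peaks with G at each position (y axis, percent) against the distance from the middle of the peak (x axis, nt in the direction of the RNA) for low-glucose-only, shared low glucose, normal-glucose-only and galactose-only peaks. At -1, low-glucose-only peaks have 27.5% G and normal-glucose-only peaks 72.1%.

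The AU-rich pentamer was rare. The motif AUUUA was searched on the gene's strand in the middle 101 nt, and it was found in 7 of 230 low-glucose-only peaks (3.04%), in 13 of 196 shared low glucose peaks (6.63%), in 6 of 258 normal-glucose-only peaks (2.33%) and in 5 of 94 galactose-only peaks (5.32%). No difference passed (adjusted exact p = 0.202, 0.858 and 0.51). Over all 3 lists it was in 50 of 1128 peaks (4.43%), and on either strand it was in 14 of the 262 (5.34%) against 105 of 1316 (7.98%). The only match in a coding exon site was in RPS16, exon 3 (minus strand, chr19:39433625-39433725), shown with the pentamer in capitals and T for U.
RPS16, low glucose only: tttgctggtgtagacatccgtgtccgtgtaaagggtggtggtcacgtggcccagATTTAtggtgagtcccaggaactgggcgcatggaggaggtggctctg
The other 6 matches were in introns, a tRNA gene region or a long non-coding RNA, among them CPNE4, FSTL5, SOX6, CBLN2 and HNRNPD-DT. None of the 8 peaks in the 3'UTR held the pentamer where the strand was known.

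Sequence that recurs in the genome was less frequent in low glucose alone. A peak was called recurrent when more than 50% of its 30-base words occur more than once in hg38, which limits how surely its reads can be placed. This held for 23 of 262 low-glucose-only peaks (8.78%, 5.65 to 12.9), 43 of 222 shared low glucose peaks (19.4%, adjusted exact p = 0.00276), 85 of 324 normal-glucose-only peaks (26.2%, adjusted p = 1.46e-07) and 18 of 111 galactose-only peaks (16.2%, adjusted p = 0.101). The recurrent members included MT1E (83.3%), RPS12 at 244 nt (72.2%), RPL19 (69.4%), RNU6ATAC (65.0%), RPL13 (58.3%) and TMSB4X (56.6%), genes with processed copies or close relatives elsewhere. Against shared peaks the difference was -0.663 points once peaks on tRNA, small RNA and rRNA genes were left out (adjusted exact p = 1).

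The width of a peak reflects how many neighbouring sites were merged. Single-site peaks of 101 nt made up 137 of the 262 (52.3%), against 91 of 222 shared low glucose peaks (41.0%), 232 of 324 normal-glucose-only peaks (71.6%) and 90 of 111 galactose-only peaks (81.1%). A width of at least 150 nt was reached by 20 low-glucose-only, 49 shared low glucose, 43 normal-glucose-only and 3 galactose-only peaks. A wider peak can meet a peak of another list more easily, so width is bound up with the rule and is given without a test.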

How the data were processed

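GAPDH CLIP of MOLM-13 cells was analysed in low glucose, normal glucose and galactose, with 2 samples per medium. The submitters' processing notes in the labels list STAR and cutadapt, without versions, and hg38. Per the study's methods, crosslink sites were called with PureCLIP, close sites were merged and lone sites were lengthened. The sample descriptions in the labels state that replicates of a medium were joined. The extract protocol in the labels describes total RNA with removal of rRNA and does not mention the precipitation. The deposited lists hold positions with Ensembl identifiers and symbols, read as 1-based with both ends included. Neither read counts nor strands stand beside these deposited positions, and the authors' calling threshold and rule for joining samples set what could be listed. How reads with several matches were treated is not given in the sources used here.

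Peaks were distinct positions, and lists met at an overlap of 1 nt. Genes, strands and transcripts came from GENCODE release 44 (619 of 623 low glucose pairs of peak and gene matched), 443 nuclear tRNA genes and the 45S units from RefSeq, and sequence from hg38. Classes were given in the order tRNA gene, other small RNA, rRNA or 45S, protein coding, lncRNA, other, with miRNA hosts counted by their other genes. Over protein coding transcripts, the middle of a peak was placed in the CDS first, else in the 5'UTR, else in the 3'UTR, else in an intron. Fisher's exact test was used for shares and 100000 permutations (seed 1) for GC medians, both two-sided, with Benjamini-Hochberg adjustment over 11 measures and 3 comparisons and a threshold of 0.05. All 3 comparisons use the same 262 peaks. Shares carry Clopper-Pearson 95% intervals. Python 3.11.15, numpy 2.4.6 and scipy 1.17.1 were used, and the comparison step was tested on simulated data.

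The members, the 26 gene lists and the tests were chosen with earlier results of these data known. Named genes were those with at least 2 low-glucose-only peaks, up to 6 per gene list, those of the 3 widest peaks, of the 5 peaks nearest to either side of the rule, the study's targets and controls with a low glucose peak, and up to 12 each in genome order for the 5'UTR and 3'UTR. Genes named for tRNA, AUUUA, GC and recurrent sequence, TAGLN2, TMSB4X, TUBA1B and the snoRNAs beyond that rule were chosen after their values were seen. Alternatives changed the overlap rule, the peaks kept, the class order and the transcripts. Some items that this rule selects are not reported here.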

Additional observations from a re-analysis of the deposited data

How the results depend on the processing

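No paired analysis was possible because the samples of each medium were joined into 1 list before deposit. For 35 results, 348 values were recomputed under 12 alternatives set beforehand and 5 added after the data were seen, and 292 kept their direction and their side of the threshold. Values below are differences in percentage points, low glucose only minus the other group. Where a setting removes peaks, fewer peaks are compared; other causes of a change were not tested.

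With another list's peak within 50 nt counted as shared, the differences from shared low glucose peaks were 11.02 for the CDS and -10.9 for introns, and both calls were lost. Within 500 nt, 45.9% of low glucose peaks stood alone and 17.1% of these lay in a gene with another list's peak. At that limit the differences from shared peaks were -3.43 (CDS), 0.979 (intron) and 1.85 (5'UTR), all reversed. From normal-glucose-only peaks they were -14.4 (CDS, now called) and 0.580 (intron, reversed), and from galactose-only peaks 2.22 (small RNA, reversed), -1.90 (coding, reversed) and -14.2 (5'UTR, call lost). With an overlap of 50% of the shorter peak required, the 3'UTR difference from shared peaks was -0.434 (reversed).

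Without peaks on RNA genes, 70.5% of low glucose peaks stood alone, AUUUA reversed against normal glucose alone (-0.340), and calls were lost for the 5'UTR against galactose alone (-15.6), introns against shared peaks (-15.9) and recurrent sequence against shared peaks (-0.663). Without recurrent peaks, the 5'UTR call against normal glucose alone was lost (10.98), and the coding share against galactose alone (-0.252) and the 3'UTR share against shared peaks (-0.366) reversed. Without single-site peaks that have G before the middle, the differences from normal glucose alone were 6.78 (5'UTR, call lost), 10.2 (CDS, reversed), -16.3 (intron, now called) and -1.76 (tRNA, reversed).

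With peaks of single-site width within 1 nt alone, the differences from shared peaks were -1.88 (3'UTR, reversed), -16.1 (intron, call lost) and -5.98 (recurrent, call lost), from normal glucose alone -14.5 (CDS, now called) and 5.46 (intron, reversed), and from galactose alone -14.5 (5'UTR, call lost). With a gene counted once, they were 0.789 (small RNA, reversed), -1.18 (coding, reversed) and -13.3 (5'UTR, call lost) from galactose alone, -0.165 (3'UTR, reversed) and -13.8 (intron, call lost) from shared peaks, and -0.146 (AUUUA, reversed) from normal glucose alone. With peaks of 1 gene only, they were -1.02 (tRNA, reversed), 9.10 (5'UTR, call lost), -17.6 (CDS, now called) and 9.63 (intron, reversed) from normal glucose alone, and -0.373 (3'UTR, reversed), -15.8 (intron, call lost) and -8.40 (recurrent, call lost) from shared peaks. With canonical transcripts, they were -1.08 (3'UTR, reversed) and -14.5 (intron, call lost) from shared peaks and 0.544 (intron, reversed) from normal glucose alone. With the 3'UTR placed first, its difference from galactose alone was 6.90 (now called).

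In the comparisons added after the data were seen, the share near the 5' end differed by -25.5 from shared peaks, where the 5'UTR share had not passed. GC medians differed by 5.86, 2.11 and 3.13 points from shared peaks within the 5'UTR, the CDS and introns, and by 4.95 and 6.44 from normal glucose alone within the 5'UTR and introns, none of them called. Within the 5'UTR the GC difference from galactose alone was 1.98 (reversed). The share with G before the middle in coding exons differed by -4.33 from shared peaks (reversed). The coding and small RNA calls, the tRNA call against shared peaks, the G call against normal glucose alone and, under the alternatives set beforehand, the GC calls held wherever they were recomputed. Depth is unknown, so a site missing from a list has no detection limit.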
